A study of Mus musculus with 6 samples.

Results

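Genes used as markers of blood monocytes and of macrophages that descend from them were followed in cultured mouse microglia. They were Lyz1, Lyz2, Chil3, Ly6c2, Plac8, Cd44 and Emb. They were taken by gene symbol from the deposited tables, and all 7 were found among 41079 genes. RNA was sequenced from microglia of C57Bl/6N pups aged 1 to 3 days, in 3 control libraries and 3 libraries of stimulated cells. Cells of both groups had been grown in mixed flasks with 20% L-929 conditioned medium, shaken off and replated. The study pooled several neonatal brains per flask and used pups of both sexes. According to the study, the cells were shaken off weeks after isolation, and serum was present in the flasks and during the brief adhesion after plating. Both groups were then kept in serum-free DMEM/F12, which control cells received without the supplements named next. According to the labels, stimulated cells received human TGFbeta, human IL34 and CX3CL1 at 100 ng/mL each, and the study's methods add cholesterol, insulin-transferrin-selenium and a collagen IV coating, so these are called optimized cultures here and no single supplement can be told apart.

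Microglia arise from yolk sac progenitors and persist in the brain, whereas classical monocytes are made in the bone marrow and enter the brain mainly in disease or after barrier damage. Monocytes carry much Ly6C, Plac8 and Chil3, which resting microglia hardly express, and these genes are used to tell the cells apart. Lysozyme and CD44 are less exclusive, since tissue macrophages and activated or cultured microglia also make them. The Lyz1 and Lyz2 proteins cut bacterial cell wall peptidoglycan, Lyz2 being the form of myeloid cells and Lyz1 that of Paneth cells of the gut. Chil3 encodes a secreted chitinase-like protein, Ly6c2 a lipid-anchored surface protein, Plac8 a small cysteine-rich protein, Cd44 the main receptor for hyaluronan, and Emb the membrane glycoprotein embigin, which escorts lactate transporters to the cell surface.

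Lyz1 and Lyz2 are neighbours on the minus strand of chromosome 10 of GRCm39, Lyz2 from 117111557 to 117118346 and Lyz1 from 117123698 to 117128775. The first 300 coding bases of each are shown because the counts of such close copies depend on how reads are shared between them. On GRCm39 they span chr10:117126935-117128743 in Lyz1 and chr10:117116547-117118147 in Lyz2, introns left out, and capitals mark the bases where the copies differ.
Lyz1: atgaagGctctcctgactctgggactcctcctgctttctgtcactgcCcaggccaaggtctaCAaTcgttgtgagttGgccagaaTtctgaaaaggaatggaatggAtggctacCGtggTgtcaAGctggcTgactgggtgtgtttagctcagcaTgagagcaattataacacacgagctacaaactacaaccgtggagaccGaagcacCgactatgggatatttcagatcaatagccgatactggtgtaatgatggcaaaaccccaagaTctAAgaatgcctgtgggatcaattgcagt
Lyz2: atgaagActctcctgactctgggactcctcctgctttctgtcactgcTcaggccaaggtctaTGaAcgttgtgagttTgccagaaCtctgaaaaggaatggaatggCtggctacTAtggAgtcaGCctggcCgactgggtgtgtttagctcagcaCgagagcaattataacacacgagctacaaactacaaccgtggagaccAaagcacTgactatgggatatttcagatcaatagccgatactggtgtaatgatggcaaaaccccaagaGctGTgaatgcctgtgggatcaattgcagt
Of the 22 differences among all 444 coding bases, 20 lay in the stretch shown, and the longest identical run was 118 bases. Of all stretches of 100 bases in the canonical Lyz1 transcript, 2.05% occurred unchanged in that of Lyz2, and of stretches of 50 bases 16.0% did. None of the 1120 stretches of 150 bases was shared. Read length and the treatment of reads with several matches are not given in the sources used here, so how far reads moved between Lyz1 and Lyz2 was not tested.

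The windows around their start sites are shown as well, since both genes were abundant. They reach from before to just after the start of transcription in RefSeq's GRCm38.p6, on the minus strand at chr10:117292819-117293118 for Lyz1 and chr10:117282223-117282522 for Lyz2, again with capitals where they differ.
Lyz1: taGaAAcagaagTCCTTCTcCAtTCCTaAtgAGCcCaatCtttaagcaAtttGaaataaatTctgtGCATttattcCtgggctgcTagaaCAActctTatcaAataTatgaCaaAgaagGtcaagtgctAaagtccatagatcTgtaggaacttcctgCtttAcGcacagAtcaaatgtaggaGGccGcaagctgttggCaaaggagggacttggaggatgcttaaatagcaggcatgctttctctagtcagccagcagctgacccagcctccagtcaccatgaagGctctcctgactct
Lyz2: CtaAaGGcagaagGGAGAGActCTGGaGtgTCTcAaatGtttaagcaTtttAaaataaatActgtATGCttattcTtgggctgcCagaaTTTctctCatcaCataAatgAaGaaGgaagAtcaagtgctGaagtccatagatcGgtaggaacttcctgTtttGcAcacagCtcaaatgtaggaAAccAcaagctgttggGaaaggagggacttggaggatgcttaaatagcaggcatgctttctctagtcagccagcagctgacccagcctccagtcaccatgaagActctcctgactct
These windows were identical at 249 of 302 aligned positions, and the last part, through the start codon, held an unbroken match of 86 bases. The letters GAGGAA, a core bound by the myeloid factor PU.1, were searched on both strands. They were found in the windows of Cd44, Ly6c2 and Plac8 and in 28.3% of all 32851 windows. TATAAA, likewise searched on both strands, was found for Chil3 among the 7 genes and in 13.6% of all windows.

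The count totals lay between 20628148 and 27261839 per library. Microglial genes were well expressed in both groups, 13 of them summing to between 8351 and 9166 CPM (TMM-scaled counts relative to library size) in control and between 14089 and 19185 CPM in optimized cultures. Optimized libraries 1 and 3 each stood apart from the rest in some genes. In optimized library 1, 96 genes had at least 20 counts and were at least 10-fold above every other library, whereas each other library had between 1 and 3 such genes. They were led by Ltf, with 1534 counts against 1 to 3 elsewhere, and by Prap1, Lcn2 and Clca1, and together took 0.0454% of that library's counts. A list of 12 epithelial markers, added after these genes had been seen, summed to 18.1 CPM in this library, to 1.02 and 1.40 CPM in the other optimized libraries and to between 0.286 and 0.350 CPM in control. None of the 12 was at 0 in every library. The summed level of 6 smooth muscle markers, a list added in the same way, was 34.0 CPM in this library. It was 10.2 and 15.8 CPM in the other optimized libraries and between 10.8 and 11.6 CPM in control. In optimized library 3, 5 fibroblast markers summed to 150 CPM, against 30.4 to 48.2 CPM in the other 5 libraries, and none of the 5 was called between the groups by edgeR. Without optimized library 1, Col1a1 and Col1a2 were called higher (log2 fold change 1.10 and 1.17, adjusted p = 0.020 and 0.027, edgeR). Optimized library 2 had 8.77 and 7.20 CPM of them, below the control means of 9.32 and 8.52 CPM. The main results are also given with optimized library 1 or 3 left out.

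The 7 genes ranged from 0 to 900580 counts in a library, as the plot of raw counts shows. In FPKM, the deposited fragment values scaled for gene length and depth, Lyz2 had 23268, 24642 and 30357 in control libraries 1 to 3 and 13725, 17080 and 17243 in optimized libraries 1 to 3. It was the gene with the highest FPKM in each control library and the third in each optimized library. Lyz1 followed with 1786, 1112 and 3091 FPKM in control and 614, 932 and 1779 FPKM in optimized cultures. Cd44 came next, with 40.2, 39.7 and 34.6 FPKM against 25.4, 21.2 and 25.0 FPKM, and Emb lay far lower, with 0.535, 0.372 and 0.842 FPKM against 2.03, 0.343 and 0.846 FPKM. The FPKM ranges of these 4 genes over the 6 libraries did not overlap. Plac8, Ly6c2 and Chil3 stood below these 4 within each library, although Plac8 reached 0.624 FPKM in optimized library 1, above Emb in 3 of the other libraries, and they could not be ordered among themselves, as most of their libraries were at 0.

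**Figure D1:**
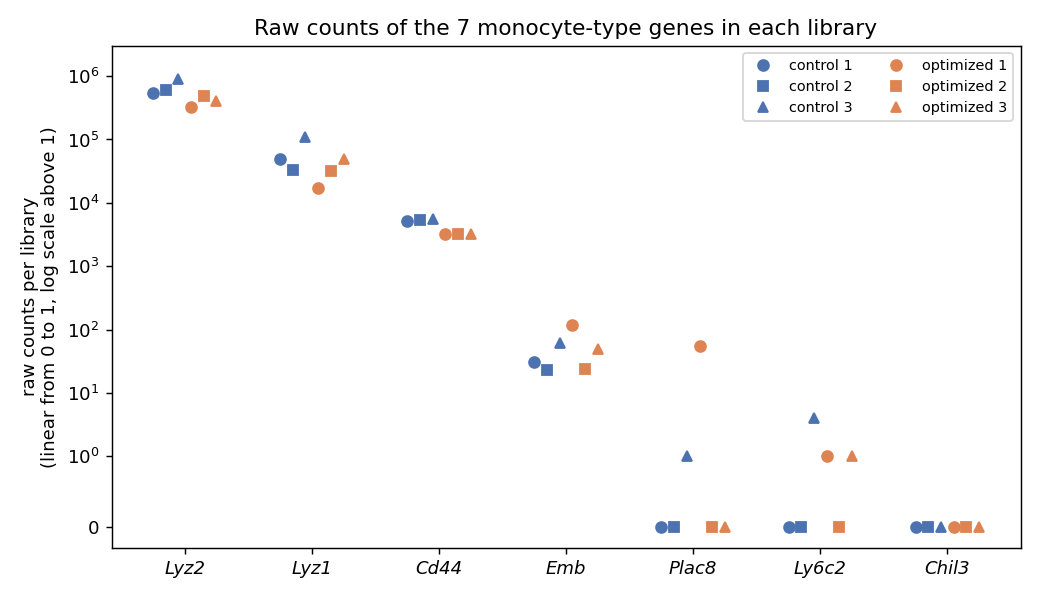
Raw counts of the 7 genes, 1 point per library, with control in blue and optimized in orange and the replicate number as the symbol. The vertical axis is linear from 0 to 1 and logarithmic above 1. Lyz2 reached 900580 counts, while Chil3 was at 0 in all 6 libraries.

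The 3 genes most closely tied to blood monocytes, Chil3, Ly6c2 and Plac8, had at most 4 counts in any library, except Plac8 in optimized library 1. Chil3, on chromosome 3 from 106054870 to 106074880, had 0 counts in all 6 libraries, which allows up to 3 counts in each, or between 0.110 and 0.145 CPM. Its close copy Chil4 was also at 0 in every library. Ly6c2, on chromosome 15 from 74980003 to 74988467, had 0, 0 and 4 counts in control and 1, 0 and 1 counts in optimized cultures. Its neighbour Ly6c1, which shares 384 of 393 coding bases with it and is also made by endothelial cells, had 1, 0 and 0 counts in control and 9, 0 and 2 counts in optimized cultures. The most Ly6c1 counts were thus in optimized library 1. The summed level of 6 endothelial markers was between 81.5 and 97.1 CPM in control and between 274 and 352 CPM in optimized cultures, but nearly all of it was Flt1, at 76.7 to 92.7 and 269 to 347 CPM. Of 4 endothelial genes tested Flt1 alone passed, Pecam1, Cdh5 and Kdr did not, and their part in the Ly6c1 counts was not tested. With so few counts a difference between the groups in Ly6c2 was not detectable at this depth.

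Plac8, on chromosome 5 from 100701591 to 100720111, was counted in essentially 1 library. It had 0, 0 and 1 counts in control libraries 1 to 3, 54 counts in optimized library 1 and 0 counts in both other optimized libraries. Plac8, at 2.56 CPM there, was one of the 96 genes that set optimized library 1 apart. Like Chil3 and Ly6c2 it did not pass edgeR's filter on low counts. Without that filter, edgeR's quasi-likelihood test gave it a log2 fold change of 5.50 (SE 1.53) and an adjusted p of 0.011, while DESeq2 gave 5.88 (SE 3.91) and an adjusted p of 0.32. Both values rested on optimized library 1, since all Plac8 counts of the group were in it. The epithelial and smooth muscle markers were highest in the same library, and their part in the Plac8 counts was not tested.

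Emb, on chromosome 13 from 117345072 to 117414817, showed the same library at the top. Its counts were 31, 23 and 62 in control and 118, 24 and 49 in optimized cultures, and the groups overlapped. Its mean level was 1.52 ± 0.68 CPM in control and 2.99 ± 2.35 CPM after optimization (SD, n = 3). The log2 fold change of 0.96 (SE 0.55) did not pass the test (adjusted p = 0.23, edgeR's quasi-likelihood test). Without optimized library 1 it was 0.13 (SE 0.42) with an adjusted p of 0.84, and without optimized library 2 it was 1.37 (SE 0.43) with an adjusted p of 0.034 by the same edgeR test. Without optimized library 3 it was 1.10 (SE 0.62) with an adjusted p of 0.26 by edgeR. Exons of Emb overlap those of Gm17509, which had between 5 and 15 counts, and how reads on both were assigned is not given in the sources used here.

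**Figure D2:**
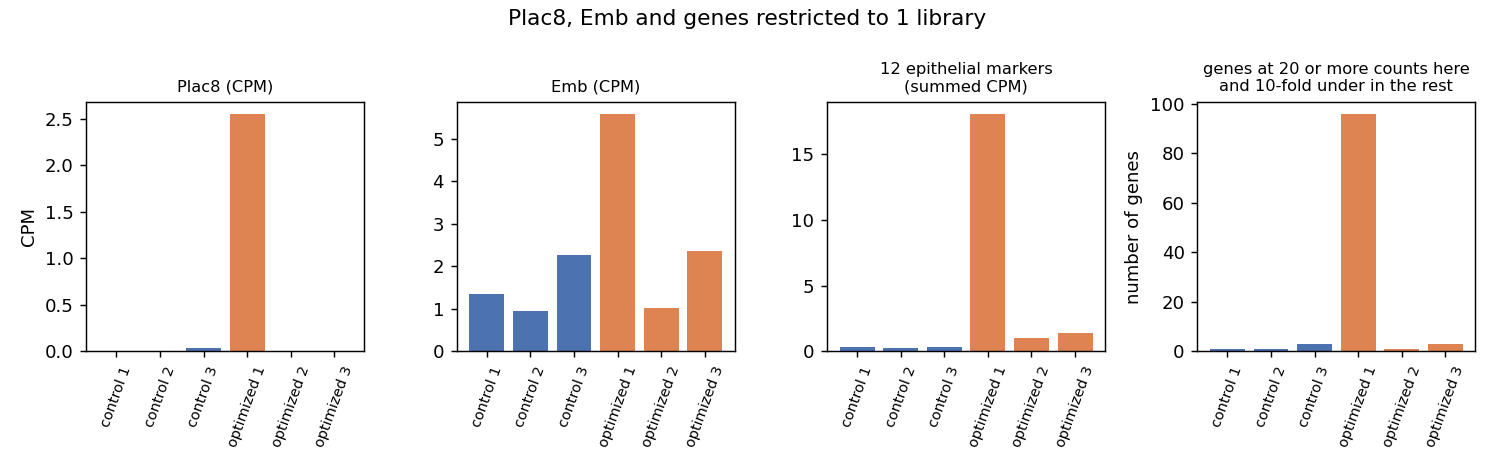
Bars give, for each library, the CPM of Plac8, the CPM of Emb, the summed CPM of 12 epithelial markers, and the number of genes with at least 20 counts and at least 10-fold above every other library. Optimized library 1 was the highest in all 4 panels, at 2.56 CPM, 5.59 CPM, 18.1 CPM and 96 genes.

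Of the 7 genes, 4 had enough counts to test, and 2 of these, Lyz2 and Cd44, were lower in the optimized cultures at an adjusted p under 0.05. Among all 14618 genes tested, 15.2% were lower, 14.7% were higher and 29.8% passed in either direction. By edgeR 0 of the 4 were higher, also at an unadjusted p under 0.05, and 0 were higher by DESeq2 at the adjusted threshold. No tested member had all optimized libraries above all control libraries, which held for 21.4% of the genes tested. The median log2 fold change of the 4 was -0.55, against 0.0079 over all genes tested.

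Lyz2 fell in the optimized cultures and remained one of the most abundant transcripts. It had 23756, 25048 and 32966 CPM in control libraries 1 to 3 and 15212, 20531 and 19486 CPM in optimized libraries 1 to 3. Every optimized library was below every control library, as was the case for 22.5% of all genes tested. The means were 27257 ± 4986 CPM and 18410 ± 2818 CPM (SD, n = 3 each). The log2 fold change was -0.57 (SE 0.17), with an adjusted p of 0.033 by edgeR's quasi-likelihood test. Lyz2 alone took 2.54%, 2.67% and 3.30% of the counts in control libraries and 1.56%, 1.84% and 1.85% in optimized libraries. The call was lost when single libraries were left out, control library 3 in particular, without which the log2 fold change was -0.41 and the adjusted p 0.099 by edgeR. Without optimized library 3 it was -0.61 with an adjusted p of 0.075, without control library 2 it was -0.63 with an adjusted p of 0.076, and without optimized library 1 it was -0.45 with an adjusted p of 0.023, all by edgeR. In bulk RNA, fewer cells of a kind and less RNA per cell cannot be told apart.

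Lyz1 varied far more between libraries of a group than Lyz2 did. It had 2182, 1353 and 4017 CPM in control and 815, 1341 and 2406 CPM in optimized cultures, and the groups overlapped. Library 3 was the highest in each group. The means were 2518 ± 1363 CPM and 1521 ± 811 CPM (SD, n = 3 each), and the log2 fold change of -0.73 (SE 0.42) did not pass edgeR's test (adjusted p = 0.24). The coefficient of variation of Lyz1 was 54.2% in control and 53.3% in optimized cultures, against 18.3% and 15.3% for Lyz2. The median over the 1769 tested genes with at least 100 CPM was 5.64% in control and 9.35% in optimized cultures. Leaving out control library 3 moved the log2 fold change of Lyz1 to -0.23, and leaving out optimized library 3 moved it to -1.23, both without passing edgeR's test (adjusted p = 0.74 and 0.064). Without optimized library 1 the log2 fold change was -0.43 with an adjusted p of 0.35 by edgeR. Optimized library 3 is also the one with the most fibroblast marker counts, whose part in the Lyz1 level was not tested.

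The share of Lyz1 in the sum of both lysozyme counts varied as well. It was 8.41%, 5.13% and 10.9% in control libraries and 5.08%, 6.13% and 10.99% in optimized libraries. Exact (Clopper-Pearson) 95% intervals were narrow, from 5.07 to 5.18% in control library 2 and from 10.8 to 10.9% in control library 3, and cover counting error only. The means were 8.13 ± 2.88% in control and 7.40 ± 3.15% in optimized cultures (SD, n = 3 each), and the difference of -0.73 percentage points gave p = 0.9 when library labels were permuted (exact permutation test, two-sided), 0.1 being the smallest p possible. When the counts of both genes were summed before the fit, the log2 fold change was -0.58 (SE 0.19) with an adjusted p of 0.040 by edgeR. Together the lysozyme genes took between 2.77 and 3.71% of all counts in control and between 1.64 and 2.07% in optimized cultures.

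**Figure D3:**
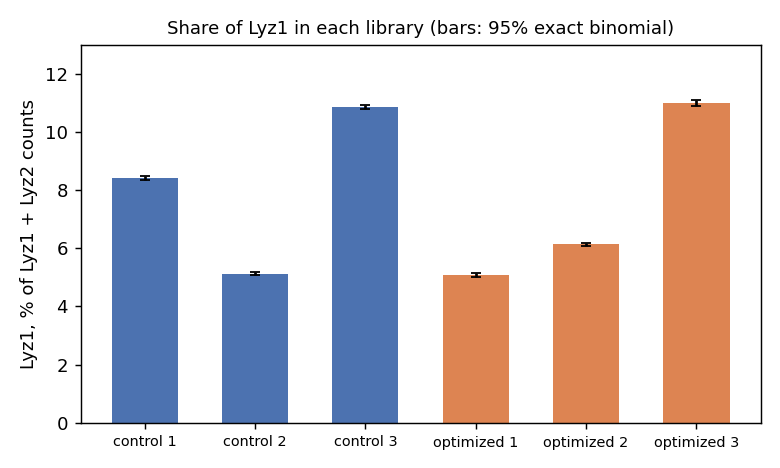
Bars show Lyz1 as a percentage of the summed counts of Lyz1 and Lyz2 in each library, with exact binomial 95% intervals as error bars. The share ran from 5.13 to 10.9% in control and from 5.08 to 10.99% in optimized cultures, with library 3 the highest in each.

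Cd44 gave the most even difference of the 7 genes. On chromosome 2 from 102641486 to 102732010, it had 223, 220 and 204 CPM in control and 153, 139 and 154 CPM in optimized cultures. All optimized libraries lay below all control libraries. The means were 216 ± 10.2 CPM and 149 ± 8.44 CPM (SD, n = 3 each), and the log2 fold change was -0.54 (SE 0.084) with an adjusted p of 0.00087 by edgeR's quasi-likelihood test. In each of the 16 alternative fits it stayed between -0.67 and -0.50 with an adjusted p of at most 0.0082. Without optimized library 1 it was -0.56 (adjusted p = 7.5e-05) and without optimized library 3 also -0.56 (adjusted p = 0.0054), both by edgeR. The gene has 11 annotated coding transcripts, which counts per gene cannot separate, so the standard and variant forms of CD44 were not compared.

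**Figure D4:**
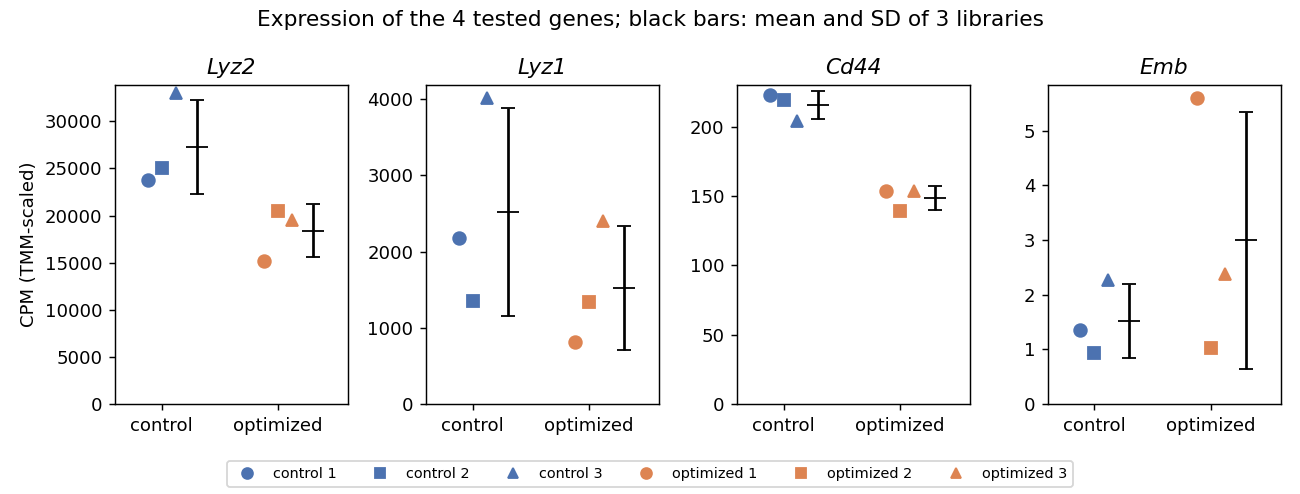
CPM of the 4 tested genes by group, 1 point per library with the replicate number as the symbol, and mean with SD in black. Every optimized library lies below every control library for Lyz2 and Cd44, whereas the groups overlap for Lyz1 and Emb.

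**Figure D5:**
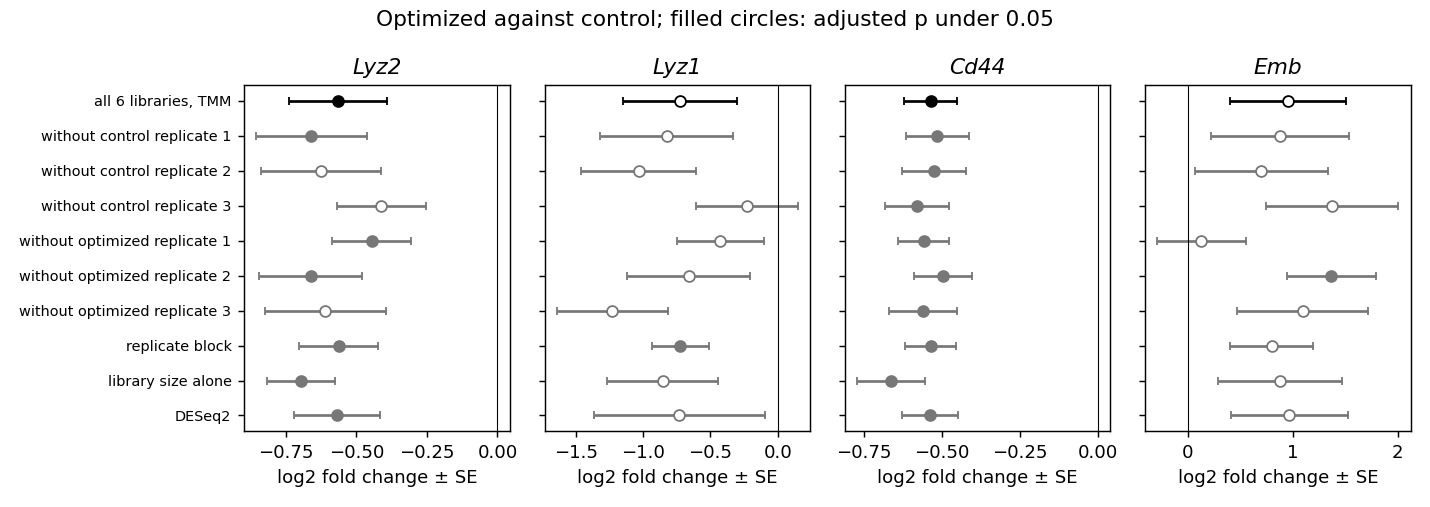
Log2 fold changes (optimized against control) with standard errors for the 4 tested genes, in the fit of all 6 libraries and 9 alternatives. Filled circles mark an adjusted p under 0.05. Cd44 was filled in all of them, Lyz2 was open in 3 fits that left out 1 library, Lyz1 was filled with the replicate block alone and Emb without optimized library 2 alone.

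By pattern over the 6 libraries (Pearson's r of log2 CPM, among 9839 genes with at least 5 CPM), the genes most like Lyz2 were Gltp (r = 0.997) and Fth1 (r = 0.995), Fth1 being the ferritin heavy chain. Those most like Cd44 were Top2a, the topoisomerase of dividing cells, with r = 0.997, and Zcchc24 with 0.996. For Lyz1 the gene most alike was Mir5625 (r = 0.988), and for Emb they were Zfp955b (r = 0.992) and Med23 (r = 0.990). Among the members, Lyz1 and Lyz2 had an r of 0.80 and Lyz2 and Cd44 one of 0.69, while Lyz2 and Emb had one of -0.49. These values describe 6 libraries in 2 groups, and the genes of a library share its scaling. A difference between the groups adds to r. The genes named as most alike had the highest r among 9839, so their r was bound to be high.

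The partners of CD44 and embigin moved both ways. The list held 15 genes, namely hyaluronan synthases, hyaluronidases, hyaluronan-binding proteins, other CD44 ligands and linkers, Cd74 and lactate transporters. Of these, 12 were tested, and 5 were higher and 4 lower at an adjusted p under 0.05 (edgeR). The median log2 fold change of the 12 was 0.10. Of all genes tested, 14.7% were higher and 15.2% lower. Spp1, which encodes osteopontin, a CD44 ligand, went from 7898 ± 976 to 26341 ± 3360 CPM (SD, n = 3), and this rise was 1.74 on the log2 scale (SE 0.15, adjusted p = 1.8e-05). Has2, a hyaluronan synthase, had 8, 4 and 7 counts in control and 15, 26 and 29 counts in optimized cultures and rose by 2.05 (SE 0.44, adjusted p = 0.0058) on the log2 scale, while Has1 and Has3 had at most 20 counts in any library and were not tested. Hmmr, a hyaluronan receptor also used in mitosis, fell the most of the list, with a log2 fold change of -1.28 (SE 0.21). Of the lactate transporters, Slc16a3 rose (log2 fold change 1.40, SE 0.13), Slc16a7 fell (-0.60, SE 0.12) and Slc16a1 had 0.17 (adjusted p = 0.28). Bsg, a relative of embigin, also escorts lactate transporters. It had means of 271 and 474 CPM in control and optimized libraries and rose by 0.81 (SE 0.15, adjusted p = 0.0027, edgeR).

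Of 13 listed relatives of the 7 genes, 12 were found and 6 were tested. Over all genes tested 14.7% were higher and 15.2% lower (edgeR, adjusted p under 0.05). Of the 6 relatives, 2 were higher and 1 lower, or 1 higher and 3 lower when scaled by library size alone. The 2 were Bsg and Ly6a, the stem cell antigen Sca of the Ly6 family, which had 18, 12 and 11 counts in control and 115, 28 and 19 counts in optimized cultures. Optimized library 1 was again the highest, and without it the log2 fold change of Ly6a went from 2.17 to 0.93 with an adjusted p of 0.12 by edgeR. The lower gene was Lyzl4, a lysozyme-like gene, with a log2 fold change of -0.80 (SE 0.24, adjusted p = 0.032), which had an adjusted p of 0.063 without that library. Chil1 was not analysed here.

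Other markers of classical monocytes did not behave as a block. Of 20 genes, 17 were tested, with 3 higher and 9 lower at an adjusted p under 0.05 (edgeR) and a median log2 fold change of -0.46. Over all genes tested, 14.7% were higher and 15.2% lower, and the median was 0.0079. Ccr2, the receptor that takes monocytes out of the bone marrow, had 14, 16 and 24 counts in control and 33, 14 and 10 counts in optimized cultures, with a log2 fold change of 0.29 (adjusted p = 0.71), which was -0.40 (adjusted p = 0.54) without optimized library 1. The lowest was Clec4e, a C-type lectin that senses mycobacterial glycolipid, which went from 161 ± 17.9 to 16.7 ± 0.593 CPM (SD, n = 3), with a log2 fold change of -3.27. The highest was Fn1, the matrix protein fibronectin, which rose by 2.82 on the log2 scale (SE 0.15). Ifitm3, an interferon-induced membrane protein, fell by 2.20, and Itga4, an integrin subunit used for adhesion to vessels, fell by 1.89. Without optimized library 1, 4 were higher and 8 lower.

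Of 10 markers of patrolling monocytes, 8 were tested, 2 being higher and 3 lower (edgeR, median log2 fold change -0.55). Of all genes tested, 14.7% were higher and 15.2% lower. Adgre4, an adhesion receptor of the F4/80 family, had 86, 108 and 110 counts in control and 0 in each optimized library, and was at least 29.4-fold lower when 3 counts per optimized library are taken as the limit. Itgal, the integrin chain of LFA, rose by 1.63 on the log2 scale (SE 0.082). Among 6 transcription factors of the lineage, 2 were higher and 1 lower. Spi1, which encodes PU.1, fell by 0.56 (SE 0.14, adjusted p = 0.014), Cebpa rose by 1.65 (SE 0.13), and Cebpb had -0.24 (adjusted p = 0.26).

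Of 11 neutrophil markers, S100a9, Mpo, Elane and Ngp were at 0 in all 6 libraries and 3 were tested, 2 being higher (edgeR). Most of their summed level was Csf3r, the receptor for granulocyte colony-stimulating factor, at 199 to 224 CPM in control and 198 to 232 CPM in optimized cultures (log2 fold change -0.019, adjusted p = 0.91). The sum was 309 CPM in optimized library 1, 72.6 CPM of it Ltf, and between 201 and 225 CPM in the other 5 libraries. S100a8 was higher in the optimized cultures, with 2, 4 and 6 counts in control and 30, 72 and 30 counts in optimized libraries, a log2 fold change of 3.59 (SE 0.50). Mmp8 was higher as well, at 1.57 (SE 0.30). Of the lymphocyte and dendritic markers Cd3e, Cd3g, Nkg7, Flt3 and Ccr7 were at 0 in all libraries, and Cd79a, Ms4a1 and Xcr1 had at most 11 counts in any library. Zbtb46 made up most of the summed level of the 10 and was the 1 gene tested, with 7.80 to 8.40 CPM in control and 4.26 to 5.02 CPM in optimized cultures, and it fell by 0.79 (SE 0.14). Of 10 border-associated macrophage markers 8 were tested, with 2 higher and 3 lower, Mrc1 falling from 330 ± 21.8 to 62.7 ± 5.37 CPM (SD, n = 3) and Clec12a having the lowest log2 fold change, -2.54. The 2 higher genes, Pf4 and Siglec1, rose by 0.53 and 0.59, but 0 were higher when scaled by library size alone. In the same libraries 10 of 13 microglial genes were higher and 2, Csf1r and Aif1, were lower, from -0.45 for Aif1 to 4.63 for Olfml3 among those called. Over all genes tested, against which the counts of these lists stand, 14.7% were higher and 15.2% lower.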

How the data were processed

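RNA-seq data of 3 control and 3 optimized cultures were used. Paired-end reads were aligned by the authors with HISAT2 (mm39, the same assembly as GRCm39) and assigned to genes by featureCounts. The values deposited by the authors were raw counts, not normalized, and FPKM. Tool versions, annotation, strandedness and multi-gene reads are not given in the sources used here. The raw counts were fitted with edgeR 4.0.16 (R 4.3.3), using filterByExpr, TMM factors and the quasi-likelihood test. All 14618 genes kept were adjusted by Benjamini-Hochberg, and calls were made at 0.05. Each standard error is the log2 fold change divided by the square root of F. Libraries are biological replicates according to the study, and p-values measure the spread between them. Alternatives were DESeq2 1.42.0, scaling by library size alone or by relative log expression, other filters, the replicate block, leaving out each library, summed close copies, and limma 3.58.1 on log2(FPKM + 1) and log2(FPKM + 0.1), a scale that understates changes of low genes. The fits were run on counts simulated with the same dispersion for every gene, which cannot show how they handle genes as uneven as Lyz1. Loci are those of GENCODE M39, and sequences were aligned with Biopython 1.88. The 7 genes and the gene lists were chosen with earlier results of these data known. The epithelial, smooth muscle and endothelial lists were chosen after the genes of optimized library 1 had been seen. Named genes are the 7 members, the highest and lowest gene called in each list, preset genes such as Ccr2, Spp1, Mrc1 and microglial markers, and for each tested member the 2 genes of most alike pattern, of which some are not reported here. Ltf, Prap1, Lcn2, Clca1, F13a1, Thbs1, Ifitm3, Itga4, Mmp8, Pf4, Csf3r, Col1a1, Col1a2 and the genes given for the endothelial and lymphocyte lists were named after their values were seen.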

Additional observations from a re-analysis of the deposited data

How the results depend on the processing

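Cd44 kept its direction and its adjusted p under 0.05 in all alternatives tried. Lyz2 kept its direction in all of them, but its adjusted p was 0.64 and 0.59 with limma on log2(FPKM + 1) and log2(FPKM + 0.1), where its log2 fold change was -0.70 in each, and 0.034 with genes of a mean FPKM under 1 left out. With those genes left out its log2 fold change was -0.70 as well. The standard errors were 0.82, 0.74 and 0.21 in the order given, so the fits differed in the standard error. Why it differed was not tested. The number of members called lower was 1 in both limma fits that kept genes of low FPKM. Without edgeR's filter on low counts 1 member, Plac8, was called higher. Summed counts of Lyz1 and Lyz2, of which Lyz1 made up 5.08 to 10.99%, gave -0.58 and passed, which is no call of Lyz1 itself. Leaving out 1 library at a time placed Lyz2 between -0.66 and -0.41, Lyz1 between -1.23 and -0.23, Cd44 between -0.58 and -0.50 and Emb between 0.13 and 1.37, the members called numbering 0 to 1 higher and 1 to 2 lower. Lyz2 lost its call in 3 of these fits, those lacking replicate 2 or 3 of control or replicate 3 of the optimized cultures (adjusted p = 0.076, 0.099 and 0.075, edgeR). The difference in the share of Lyz1 ran from -2.53 to 0.63 percentage points in the same way, and turned positive without control replicate 3 (0.63) or optimized replicate 1 (0.43).

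Library size alone in place of TMM moved the median log2 fold change of all genes tested from 0.0079 to -0.12, and the share of higher genes among those called from 49.1% to 32.3%. Under it 1 relative was higher and 3 were lower, 2 transcription factors were lower, and 0 border-associated macrophage markers were higher. Without optimized replicate 1, an alternative chosen after seeing the data, 0 relatives were lower.

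Same-numbered libraries deviated from their group means with correlations of 0.28, -0.013 and 0.18 for numbers 1 to 3, so the numbers were not taken to pair them. With the replicate block Lyz1 had a log2 fold change of -0.72 (SE 0.21) and an adjusted p of 0.025 by edgeR, and no other member changed its call. With the replicate block and without replicate 1 of both groups, chosen after seeing the data, neither lysozyme gene passed, Lyz1 having -0.38 (adjusted p = 0.064) and Lyz2 -0.52 (adjusted p = 0.070, edgeR).

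Depth limits Chil3, Ly6c2 and Plac8, whose counts in most libraries were at or under the limit of 3.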
